A study of Rattus norvegicus with 12 samples.

Results

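Transcripts of the urea cycle were followed in rat hepatocytes exposed to triclosan and to 2 related diphenyl ethers. The gene set was fixed by name and holds 8 genes: Nags, Cps1 and Otc, whose enzymes work in mitochondria, Ass1, Asl and Arg1, whose enzymes work in the cytosol, and the mitochondrial carriers Slc25a15 and Slc25a13. Probes were assigned through the RefSeq transcript that each array feature carries. In this way 7 of the 8 genes had a probe, 1 probe each, and 6 could be tested among 20359 genes or transcripts. The probes were A_42_P803406 for Nags, A_44_P346483 for Cps1, A_44_P508489 for Otc, A_44_P447373 for Ass1, A_64_P086689 for Asl, A_42_P758222 for Arg1 and A_64_P104905 for Slc25a15. No probe was matched to Slc25a13, and the Slc25a15 probe was not well above background on any of the 12 arrays.

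The cells were primary hepatocytes from male Sprague Dawley rats, thawed from frozen stocks, and the labels do not say how many rats or lots they came from. After 24 h of culture they received DMSO, the solvent, or triclosan, diclosan or 1-chloro-3-(4-chlorophenoxy) benzene, here CCPB, at 30 µM for a further 24 h. Each of the 4 groups has 3 independent experiments, hybridised to 1-colour Agilent rat arrays. If those experiments shared 1 lot of cells, p-values cover only the spread between cultures of that lot. Triclosan and diclosan carry a phenolic hydroxyl group, and triclosan has a further ring chlorine. CCPB has no hydroxyl group and, like diclosan, a chlorine on each ring. Not all of its chlorines sit in the same ring positions as those of diclosan.

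The urea cycle turns ammonia, which is toxic, into urea for excretion, and the hepatocyte is the cell that runs it in full. Carbamoyl phosphate is made in the mitochondrion by Cps1, which needs N-acetylglutamate from Nags as an activator, and Otc joins it to ornithine to give citrulline. Citrulline leaves the mitochondrion in exchange for ornithine through Slc25a15. In the cytosol Ass1 joins it to aspartate, which Slc25a13 exports from mitochondria, Asl splits the product into arginine and fumarate, and Arg1 splits arginine into urea and ornithine. Hormonal control of these genes by glucagon, glucocorticoids and insulin is textbook knowledge of the liver.

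The promoters of 4 members are shown because 2 of them, Ass1 and Asl, were higher together on the CCPB arrays and Cps1 held the rarest of the motifs searched. Nags was added because it was lower on the CCPB arrays, though not in a fit that takes the array slide into account (below). The promoter set held no entry for Arg1. The sequences are those of RefSeq on build GRCr8, on the strand of each gene, from 250 bases before to 50 bases after the start. They lie at chr3:35149480-35149779 for Ass1, chr12:32295658-32295957 for Asl, chr10:87598266-87598565 for Nags and chr9:76063613-76063912 for Cps1, all on the plus strand. The starts used for Ass1 and Asl lie downstream of the first annotated base of the gene, and the Ass1 window lies wholly inside the gene. Capitals mark the motif matches.
Ass1: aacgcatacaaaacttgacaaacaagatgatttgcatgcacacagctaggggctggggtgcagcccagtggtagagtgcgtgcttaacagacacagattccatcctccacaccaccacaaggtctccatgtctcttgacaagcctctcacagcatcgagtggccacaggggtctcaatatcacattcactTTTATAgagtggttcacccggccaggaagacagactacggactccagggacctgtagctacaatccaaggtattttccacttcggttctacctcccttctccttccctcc
Asl: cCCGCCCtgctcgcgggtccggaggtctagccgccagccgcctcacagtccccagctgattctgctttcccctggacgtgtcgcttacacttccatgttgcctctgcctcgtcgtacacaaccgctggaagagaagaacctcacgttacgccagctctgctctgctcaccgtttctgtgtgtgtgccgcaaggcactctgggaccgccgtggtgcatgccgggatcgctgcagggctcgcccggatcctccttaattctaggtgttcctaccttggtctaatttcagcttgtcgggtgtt
Nags: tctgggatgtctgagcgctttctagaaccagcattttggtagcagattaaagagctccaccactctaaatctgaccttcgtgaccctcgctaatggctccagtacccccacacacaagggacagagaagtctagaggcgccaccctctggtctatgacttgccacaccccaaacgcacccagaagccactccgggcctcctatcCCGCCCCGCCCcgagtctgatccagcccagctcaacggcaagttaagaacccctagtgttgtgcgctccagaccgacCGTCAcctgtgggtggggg
Cps1: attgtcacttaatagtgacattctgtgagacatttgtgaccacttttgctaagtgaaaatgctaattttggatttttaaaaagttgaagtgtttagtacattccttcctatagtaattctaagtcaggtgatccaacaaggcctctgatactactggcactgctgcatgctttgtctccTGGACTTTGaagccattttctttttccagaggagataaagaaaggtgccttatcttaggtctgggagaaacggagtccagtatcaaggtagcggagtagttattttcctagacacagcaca

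Both strands of the windows of 7 members, among them those shown, were searched for 6 motifs. They were the C/EBP-type core TTGCNNAA, the CCAAT box CCAAT, the GC box GGGCGG, the TATA box TATAAA, the CRE half-site TGACG and the HNF4A-type core CAAAGTCCA. Among 33469 promoters of the same length, the shares holding them were 10.6%, 37.5%, 33.1%, 14.2%, 21.2% and 0.391% in that order. The Ass1 window held a TATA box, read on the minus strand, at position 191, counting from the first base shown. The Asl window held a GC box at position 2, also on the minus strand. The Nags window had 2 GC boxes, at positions 205 and 210, which overlap, and a CRE half-site at position 282, all on the minus strand. In Cps1 the single match was the HNF4A-type core, on the minus strand at position 180. Cps1 was shown for this match, so the 0.391% is no measure of how unexpected the match is. Ass1 and Asl had none of the 6 motifs in common. Of the windows not shown, Slc25a13 held a CCAAT box, a GC box and a CRE half-site, Slc25a15 a CCAAT box, and Otc no match. A match is a run of letters and not a measured binding site.

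Values are log2 of the processed signal from the scanner software minus the 75th percentile of that array, so a value of 1 lies 1 doubling above the percentile. A gene was called when its limma p-value, adjusted by the Benjamini-Hochberg method over all 20359 genes or transcripts, was under 0.05. The 12 arrays lie on 2 slides. All CCPB arrays and replicate 3 of diclosan were on slide 2, and everything else was on slide 1. Diclosan was thus the only group on both slides, and no batch held DMSO together with CCPB or triclosan together with CCPB. Results for CCPB are therefore given from both the fit without the slide and a fit with the slide as a block. In the latter the slide shift is estimated from the diclosan arrays, of which only replicate 3 lies on slide 2. Differences of CCPB from DMSO or triclosan in that fit thus depend on this 1 array. Between 51.6% and 55.5% of probes were well above background on each array, and no array had a saturated spot (0 on each). All 6 tested members were well above background on all 12 arrays. The number of arrays limits the precision: the median 95% confidence interval of a difference reached 0.14 either side on the log2 scale without the slide and 0.23 for CCPB against DMSO with it. The probes measure RNA from whole cultures, so fewer hepatocytes and less RNA per hepatocyte cannot be told apart.

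The enzymes of the cytosolic stretch were higher on the CCPB arrays and differed little on the others. Arg1, Asl and Ass1 rose with CCPB in both fits, by 1.39-, 1.27- and 1.26-fold without the slide. Nags was called lower with CCPB, but not once the slide was in the model, and neither Cps1 nor Otc was called. The Cps1 estimate without the slide, 0.33, was close to those of Ass1 (0.34) and Asl (0.35), with a wider interval. The tested mitochondrial members also had the dimmer probes, with DMSO means of -0.41 to 1.87 against 5.80 to 6.34 for the cytosolic ones. Location in the cell and probe signal thus cannot be told apart among them. Without the slide 4 of the 6 tested members were called against DMSO, 3 higher and 1 lower, beside 28.3% of all genes or transcripts (14.3% higher and 14% lower). In the fit with the slide, the 3 higher calls were left, beside 3.46% of all genes or transcripts (1.66% higher). The median difference of the 6 members was 0.34 without the slide and 0.20 with it, against medians of 0.0054 and -0.0041 over all genes or transcripts.

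**Figure D1:**
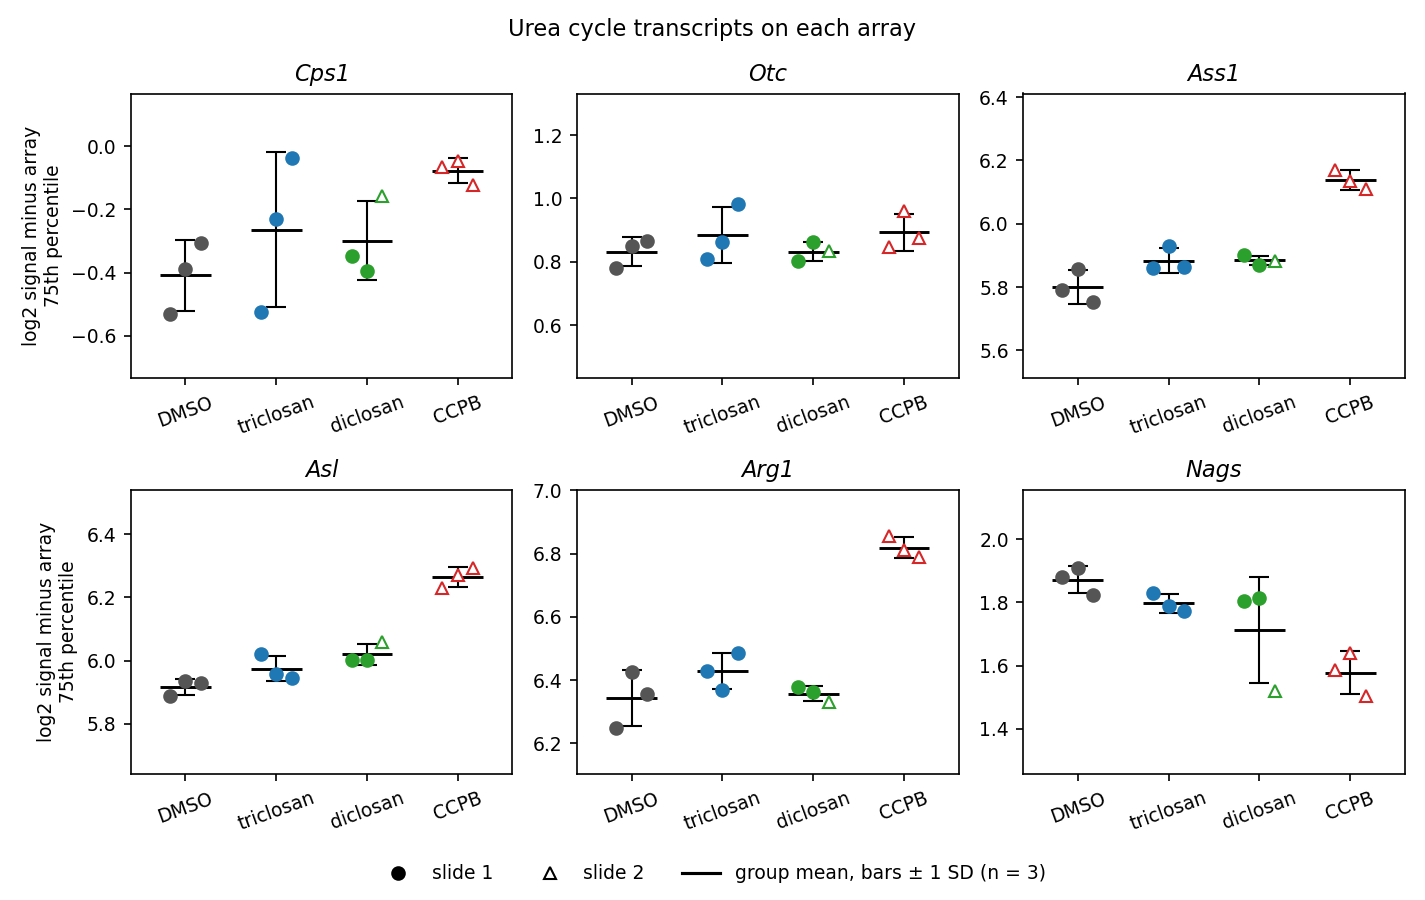
Each panel plots 1 urea cycle gene, with log2 signal minus the array's 75th percentile on the vertical axis and the 4 groups on the horizontal axis. Points are single arrays, filled for slide 1 and open for slide 2, lines are group means and bars are 1 SD (n = 3). Arg1, Asl and Ass1 sit apart and higher on the 3 CCPB arrays, and the slide 2 array of diclosan lies with the other diclosan arrays for Ass1 and Arg1 but at 1.52, near the CCPB arrays, for Nags.

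Arginase 1, the last enzyme of the cycle, moved the most. On the DMSO arrays Arg1 read 6.25, 6.42 and 6.36, and on the CCPB arrays 6.86, 6.81 and 6.79. All CCPB arrays lay above all DMSO arrays, as they did for 26.1% of all genes or transcripts. The difference was 0.48 (95% confidence interval 0.37 to 0.58), with a limma adjusted p of 0.000177. With the slide as a block it was 0.51 (0.31 to 0.72), adjusted p = 0.0191. Triclosan gave 6.43, 6.37 and 6.48, and diclosan gave 6.38, 6.36 and 6.33, values that overlapped those of DMSO. The order of the means was DMSO at 6.34 ± 0.089, diclosan at 6.36 ± 0.024, triclosan at 6.43 ± 0.057 and CCPB at 6.82 ± 0.034 (SD, n = 3 each), and of the neighbours in this order triclosan and CCPB alone differed by the test, and only without the slide.

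Argininosuccinate lyase, Asl, which releases arginine and fumarate, was also higher with CCPB in both fits. The DMSO values were 5.89, 5.94 and 5.93 and the CCPB values 6.23, 6.27 and 6.29, with a wide gap between the groups. The difference was 0.35 (95% confidence interval 0.27 to 0.43, limma adjusted p = 0.000157) and, with the slide as a block, 0.29 (0.16 to 0.42, adjusted p = 0.0337). Triclosan arrays read 6.02, 5.96 and 5.95 and diclosan arrays 6.001, 6.0005 and 6.06. All lay above every DMSO array, as they did for 8.67% (triclosan) and 8.71% (diclosan) of all genes or transcripts. Neither of these smaller shifts was called: they were 0.057 for triclosan (adjusted p = 0.574) and 0.10 for diclosan (adjusted p = 0.372). The group SDs of Asl were 0.026 to 0.040, and its means rose from DMSO at 5.92 through triclosan at 5.97 and diclosan at 6.02 to CCPB at 6.26. Of these neighbours, diclosan and CCPB differed by the test, in both fits, and the others did not.

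For argininosuccinate synthase, Ass1, the enzyme that brings in the second nitrogen as aspartate, DMSO arrays read 5.79, 5.86 and 5.75. The CCPB arrays read 6.17, 6.14 and 6.11, again with no overlap. Ass1 was higher by 0.34 (95% confidence interval 0.26 to 0.42, limma adjusted p = 0.000260) without the slide and by 0.34 (0.19 to 0.49, adjusted p = 0.0323) with it, so the size barely moved between the fits. Triclosan (5.86, 5.93 and 5.86) and diclosan (5.90, 5.87 and 5.88) lay above all DMSO arrays by means of 0.084 each, which were not called (adjusted p = 0.425 and 0.464). Such a separation of all 3 arrays from all 3 DMSO arrays, in either direction, was found in 19% of all genes or transcripts for triclosan, 16.1% for diclosan and 50.1% for CCPB. The group means ran DMSO 5.80 ± 0.053, triclosan 5.88 ± 0.039, diclosan 5.88 ± 0.015 and CCPB 6.14 ± 0.031 (SD, n = 3 each), and again the step from diclosan to CCPB was the one that passed the test.

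Nags, which makes the activator of Cps1, was the only tested member with a lower mean in all 3 compounds than in DMSO. It read 1.88, 1.91 and 1.82 with DMSO, 1.83, 1.79 and 1.77 with triclosan, and 1.59, 1.64 and 1.51 with CCPB. The diclosan arrays split by slide, with 1.81 and 1.81 on slide 1 and 1.52 on slide 2, and the slide 2 value fell between those of CCPB. Against DMSO, Nags was 0.29 lower with CCPB without the slide (log2 difference -0.29, 95% confidence interval -0.46 to -0.13, limma adjusted p = 0.0166). With the slide in the model the difference was -0.0039 (-0.17 to 0.16, adjusted p = 0.987). The call was also lost without DMSO replicate 2 (adjusted p = 0.0549) or CCPB replicate 3 (adjusted p = 0.0602), with each array centred on its median (0.0658), and with dim probes kept in the test (0.0575). For diclosan the difference from DMSO was -0.16 over all 3 arrays (adjusted p = 0.493) and -0.062 over the slide 1 arrays, so replicate 3 on slide 2 supplied most of it. The means fell in the order DMSO 1.87 ± 0.042, triclosan 1.80 ± 0.030, diclosan 1.71 ± 0.17 and CCPB 1.58 ± 0.068 (SD, n = 3 each), and no neighbours in this order differed by the test.

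Cps1, the entry enzyme of the cycle, varied most between replicates among the 6 with DMSO and triclosan, though Nags varied more with diclosan and with CCPB. Its values were -0.53, -0.39 and -0.31 with DMSO and -0.53, -0.23 and -0.038 with triclosan. They were -0.35, -0.39 and -0.16 with diclosan and -0.066, -0.047 and -0.12 with CCPB. The CCPB arrays lay close together and above all DMSO arrays, as they did for 26.1% of all genes or transcripts. The triclosan arrays spanned nearly the whole range. Cps1 was 0.33 higher with CCPB (95% confidence interval 0.078 to 0.58), which was not called (limma adjusted p = 0.053). With the slide as a block it was 0.12 higher (-0.33 to 0.56, adjusted p = 0.812). Leaving out single arrays of other groups brought it under the threshold, with adjusted p = 0.0183 without triclosan replicate 1, 0.0305 without triclosan replicate 3 and 0.0433 without diclosan replicate 3. The same held for the fit on the DMSO and CCPB arrays alone, where its adjusted p was 0.014. None of these fits included the slide, and over all 12 fits without a single array its adjusted p reached 0.156. Diclosan replicate 3, on slide 2, again lay nearer to the CCPB arrays than diclosan replicates 1 and 2 did. The means were -0.41 ± 0.11 with DMSO, -0.30 ± 0.13 with diclosan, -0.26 ± 0.25 with triclosan and -0.078 ± 0.039 with CCPB (SD, n = 3 each), and no neighbours differed by the test.

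Otc, which makes citrulline, had overlapping values in all 4 groups. It read 0.78, 0.85 and 0.86 with DMSO, 0.81, 0.86 and 0.98 with triclosan, 0.80, 0.86 and 0.83 with diclosan, and 0.85, 0.96 and 0.87 with CCPB. The highest single value was a triclosan array and the lowest a DMSO array. The difference for CCPB was 0.062 (95% confidence interval -0.051 to 0.17, limma adjusted p = 0.386), and the interval holds no rise as large as the 0.34 measured for Ass1. For triclosan it was 0.053 (-0.060 to 0.17) and for diclosan -0.00016 (-0.11 to 0.11). The CCPB interval for Otc widened to -0.15 to 0.27 with the slide as a block.

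**Figure D2:**
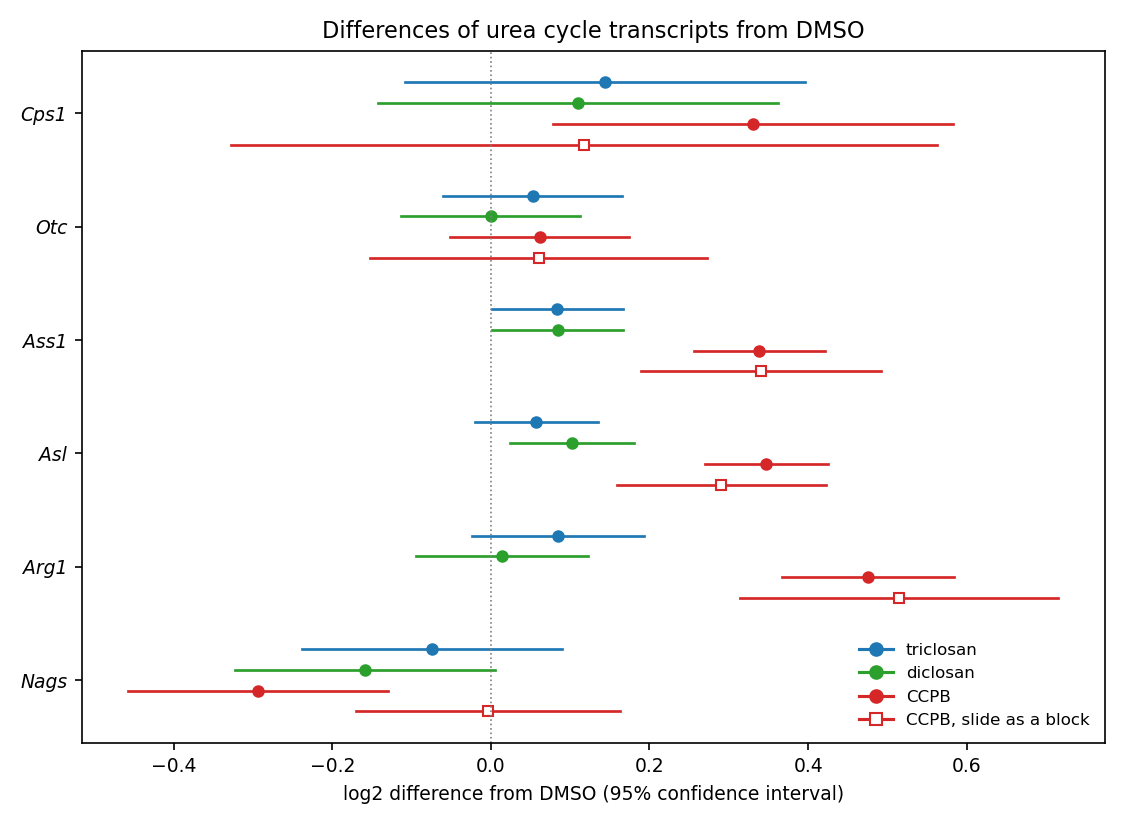
The horizontal axis gives the log2 difference from DMSO and the vertical axis lists the 6 tested urea cycle genes. Points are limma estimates with 95% confidence intervals for triclosan, diclosan and CCPB (3 arrays a group), and open squares are CCPB with the slide as a block. The CCPB intervals of Arg1, Asl and Ass1 lie above 0 in both fits, while that of Nags moves from -0.29 to -0.0039 with the slide.

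No tested member was called with triclosan or diclosan against DMSO. The background of calls was also small, at 0.0639% of all genes or transcripts for triclosan and 0.00982% for diclosan, or 0.226% and 0.0147% with the slide as a block. Differences of the members ran from -0.074 (Nags) to 0.14 (Cps1) with triclosan and from -0.16 (Nags) to 0.11 (Cps1) with diclosan. For Arg1 the intervals reached at most 0.19 with triclosan and 0.12 with diclosan, both below the 0.48 measured with CCPB. For Cps1 they reached 0.40 and 0.36, above its 0.33 with CCPB, and for Nags with diclosan -0.32, past its -0.29 with CCPB. The 3 comparisons with DMSO share the DMSO arrays and are not independent of each other.

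Compared at the matched dose and time, CCPB differed from diclosan at the cytosolic enzymes in both fits, and from triclosan in the fit without the slide. The 3 pairs of compounds were tested in the same fit, each adjusted over all genes or transcripts. Against CCPB, diclosan was lower in 3 of the 6 members, beside 6.27% of all genes or transcripts called lower (14.4% in either direction). The differences were -0.46 for Arg1 (95% confidence interval -0.57 to -0.35, limma adjusted p = 0.000359), -0.25 for Ass1 (-0.34 to -0.17, adjusted p = 0.00202) and -0.24 for Asl (-0.32 to -0.17, adjusted p = 0.00182). With the slide as a block, the same genes Arg1, Ass1 and Asl were called, at -0.49, -0.26 and -0.21 (adjusted p = 0.00668, 0.0283 and 0.0379), beside 2.44% of all genes or transcripts called lower (4.95% in either direction). Asl lost the call when each array was centred on its median (adjusted p = 0.0658).

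CCPB could be set against another group within a slide only here. On slide 2, with diclosan replicate 3 against the 3 CCPB arrays, the differences were -0.49 for Arg1 (95% confidence interval -0.65 to -0.33), -0.26 for Ass1 (-0.41 to -0.0999) and -0.21 for Asl (-0.36 to -0.050). These sizes match those with the slide as a block, because both rest on the slide 2 arrays. The fit rests on 1 array against 3, with the lone array assumed to vary like the CCPB arrays, and 0 of 20359 genes or transcripts (0%) were called (limma adjusted p of Arg1 0.113, of Ass1 0.173 and of Asl 0.219). Nags differed by 0.13 between diclosan and CCPB over both slides (-0.029 to 0.30) and by -0.058 within slide 2 (-0.27 to 0.15), which is a change of sign. Without diclosan replicate 3, where the groups lie on separate slides, the Nags difference was 0.23 and was called (adjusted p = 0.00649).

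Triclosan was likewise lower than CCPB in Arg1, Asl and Ass1, beside 11% of all genes or transcripts called lower (20.5% in either direction). The log2 differences were -0.39 (95% confidence interval -0.50 to -0.28), -0.29 (-0.37 to -0.21) and -0.25 (-0.34 to -0.17), with limma adjusted p of 0.000961, 0.000840 and 0.00212. With the slide as a block the sizes were -0.43, -0.23 and -0.26, but none of the 6 members was called (adjusted p = 0.0581, 0.0990 and 0.112), beside 1.41% of all genes or transcripts. Nags was 0.22 higher with triclosan than with CCPB (0.055 to 0.38, adjusted p = 0.0594), and the difference was -0.070 with the slide as a block. Over all genes or transcripts 1930 were called higher and 2242 lower in this pair, and 852 and 1535 when each array was centred on its median.

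Triclosan and diclosan, which differ by a ring chlorine, gave no call in any tested member. No gene or transcript was called in this pair by limma (0%), with 1391 at an unadjusted p under 0.05 and 1 called with the slide as a block (0.00491%). The estimates ran from -0.045 for Asl (95% confidence interval -0.12 to 0.033) to 0.084 for Nags (-0.080 to 0.25). For Ass1 the difference was -0.00077 (-0.083 to 0.082), and for Arg1 it was 0.071 (-0.038 to 0.18). The intervals leave room for differences of this order and do not show that the compounds act alike.

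**Figure D3:**
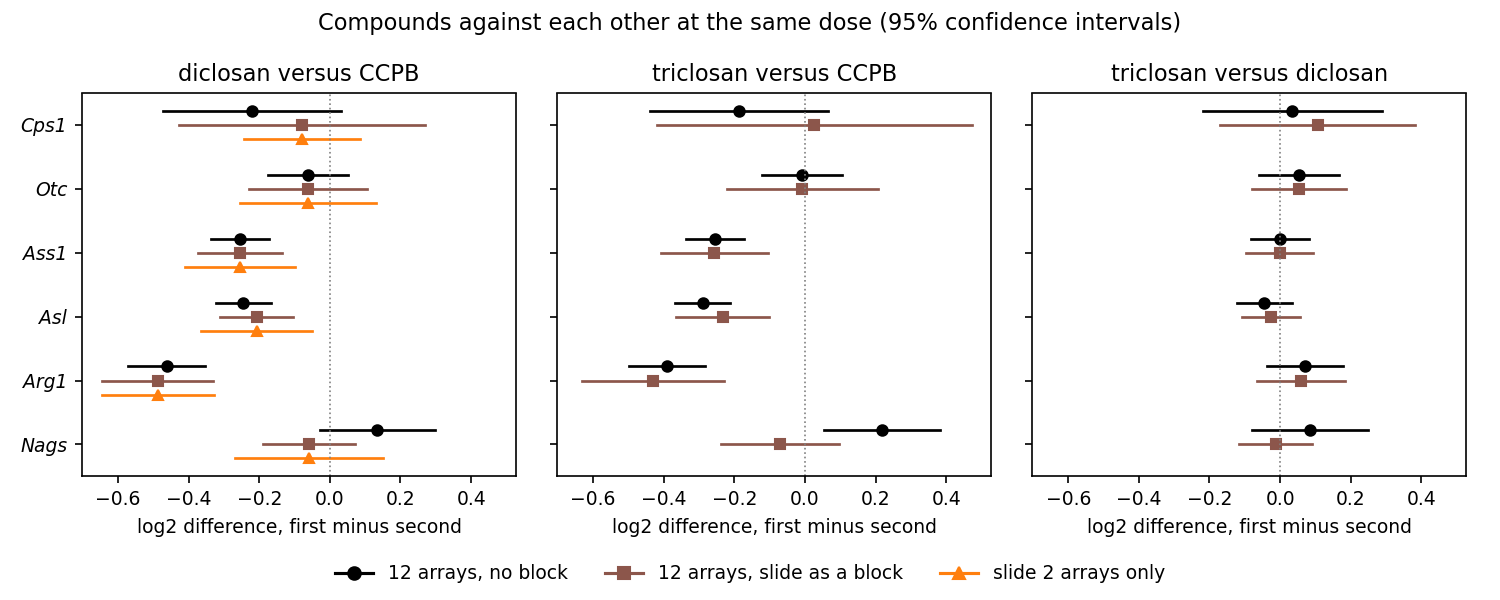
Each panel gives the log2 difference between 2 compounds (first minus second, horizontal axis) for the 6 tested urea cycle genes (vertical axis), with 95% confidence intervals. Circles are the fit without the slide, squares the fit with the slide as a block, and triangles the slide 2 arrays alone (1 diclosan against 3 CCPB arrays). Arg1, Ass1 and Asl lie below 0 against CCPB in all fits shown, and no triclosan and diclosan interval excludes 0.

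The members were also compared with each other by their course over the 12 arrays, after each was centred on its own mean. Ass1 and Asl were the most alike, with a root mean square difference of 0.048 on the log2 scale. Arg1 stood 0.090 from Ass1 and 0.094 from Asl. Nags and Arg1 were the least alike, at 0.30. Among named genes outside the set, the nearest to Arg1 were Cyp3a23-3a1 (0.039), a cytochrome P450, Acot4 (0.045), an acyl-CoA thioesterase, and Abcb11 (0.047), the bile salt export pump. Asl was nearest to Glyatl2 (0.028), Sar1b (0.029) and Hsd17b13 (0.033), and Ass1 to Mttp (0.040), Lnc-hc (0.040) and Secisbp2l (0.042). The nearest to Nags were Cep131 (0.030), Gab1 (0.035) and Basp1 (0.037). These are descriptions over arrays that share groups and slides, and they carry no test.

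Genes around the cycle were read from 5 lists. Of 118 listed genes 105 were tested. The list of isoenzymes, sister carriers and partners held the other arginase. Arg2, the mitochondrial form, read -0.79, -0.83 and -0.80 with DMSO and -1.83, -1.94 and -1.70 with CCPB. It fell with CCPB by 1.02 (limma adjusted p = 2.61e-05) and by 0.99 with the slide as a block (adjusted p = 0.00836), the opposite direction to Arg1. With triclosan Arg2 read -1.13, -1.03 and -1.06 and with diclosan -0.79, -1.05 and -0.95, differences of -0.27 and -0.12 that were not called (adjusted p = 0.218 and 0.584). Arg2 was also higher with diclosan than with CCPB, by 0.90 without the slide (adjusted p = 0.000105) and by 0.88 with it (adjusted p = 0.00383).

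Car5a, the mitochondrial carbonic anhydrase that supplies bicarbonate to Cps1, read 0.95, 1.05 and 1.07 with DMSO and 1.65, 1.65 and 1.53 with CCPB. It rose by 0.58 (limma adjusted p = 3.81e-05), and by 0.61 with the slide as a block (adjusted p = 0.00818). Its triclosan arrays (1.22, 1.21 and 1.26) and diclosan arrays (1.199, 1.194 and 1.173) lay between, above all DMSO arrays, by 0.21 and 0.16 (adjusted p = 0.145 and 0.282, not called). Arrays lay above all DMSO arrays in this way for 8.67% (triclosan) and 8.71% (diclosan) of all genes or transcripts. Of the 11 tested genes of this list, 2 rose and 3 fell with CCPB without the slide, with a median of -0.020, and 1 rose and 1 fell with it, beside 28.3% and 3.46% of all genes or transcripts called in the 2 fits. Cad, which makes carbamoyl phosphate for pyrimidines in the cytosol, was called 0.32 lower without the slide (log2 difference -0.32), and its difference was -0.084 with it (adjusted p = 0.640). Got2, the mitochondrial aspartate aminotransferase, fell by 0.19 without the slide and its difference was -0.013 with it.

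Of 19 tested genes for ammonia, glutamine and glutamate, 4 rose and 2 fell with CCPB without the slide, and 2 rose with it, with medians of -0.011 and -0.036. The share called without the slide, 6 of 19, is near the 28.3% over all genes or transcripts, and with the slide that background was 3.46%. Slc7a2, a carrier of cationic amino acids such as arginine and ornithine, went from 0.010, 0.067 and 0.013 with DMSO to 0.63, 0.74 and 0.69 with CCPB. It rose by 0.66 (limma adjusted p = 3.89e-05) and by 0.50 with the slide as a block (adjusted p = 0.00848). Adsl, an enzyme of purine synthesis that also releases fumarate, rose by 0.20 and, with the slide as a block, by 0.30 (adjusted p = 0.0451). Glud1, glutamate dehydrogenase, was called without the slide at 0.24 but not with it, at 0.26 (adjusted p = 0.0883).

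Of 22 tested genes for arginine, ornithine, proline and polyamine use, 5 rose and 7 fell with CCPB without the slide, beside 28.3% of all genes or transcripts called, and 1 rose and 2 fell with it, beside 3.46%. Ddah2, which clears methylated arginines, read 2.46, 2.41 and 2.43 with DMSO and 1.49, 1.58 and 1.46 with CCPB. It fell by 0.92 without the slide (limma adjusted p = 1.69e-05) and by 0.74 with it (adjusted p = 0.00451). Triclosan arrays of Ddah2 read 2.10, 2.09 and 2.15, a difference of -0.32 that was called only with the slide as a block (adjusted p = 0.0782 without and 0.0430 with). Sms, spermine synthase, fell by 0.43 and 0.48 in the 2 fits (adjusted p with the slide 0.0196). Aldh18a1, the first enzyme of proline synthesis from glutamate, and Ddah1 fell by 0.41 and 0.44 without the slide and were not called with it (adjusted p = 0.0626 and 0.1004).

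Genes of amino acid breakdown were mostly called higher with CCPB without the slide. The list mixes steps that release nitrogen with later steps such as Fah, so its counts do not measure nitrogen supply to the cycle. Among its aminotransferases, Tat and Bcat2 fell and Agxt, Agxt2 and Aadat rose in that fit. Of 29 tested genes 18 rose and 2 fell with CCPB without the slide, with a median of 0.25, beside 14.3% of all genes or transcripts called higher. With it 7 rose and none fell, with a median of 0.20, beside 1.66% called higher. Agxt, the glyoxylate aminotransferase of peroxisomes, rose by 0.49 (limma adjusted p = 8.69e-05) and by 0.51 with the slide as a block (adjusted p = 0.0147). Ftcd, of histidine breakdown, rose by 0.52 and 0.67 in the 2 fits, and Fah, the last enzyme of tyrosine breakdown, by 0.38 and 0.37 (adjusted p with the slide 0.0120 and 0.0307). Cbs, of methionine breakdown, rose by 0.41 without the slide and was 0.36 higher with it (adjusted p = 0.0511). No gene of these 4 lists was called with diclosan against DMSO in either fit, and Ddah2 with triclosan, with the slide as a block, was the single call there.

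Of 24 tested regulators known to act on urea cycle genes, 6 rose and 4 fell with CCPB without the slide, and 3 rose with it, with medians of 0.093 and 0.088, beside 28.3% and 3.46% of all genes or transcripts called. Creb3l3, a hepatocyte factor of the fasting response, rose by 0.37 and, with the slide as a block, by 0.56 (limma adjusted p = 0.0160). Onecut1, a liver-enriched transcription factor, was 0.43 lower without the slide and 0.18 lower with it (adjusted p = 0.366). Nr0b2, a nuclear receptor that lacks a DNA-binding domain, was the only gene of the 5 lists called with all 3 compounds without the slide. Its differences from DMSO were 2.25 with CCPB, 2.09 with triclosan and 1.80 with diclosan. Arg1, Asl and Ass1 were called against DMSO with CCPB alone.

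**Figure D4:**
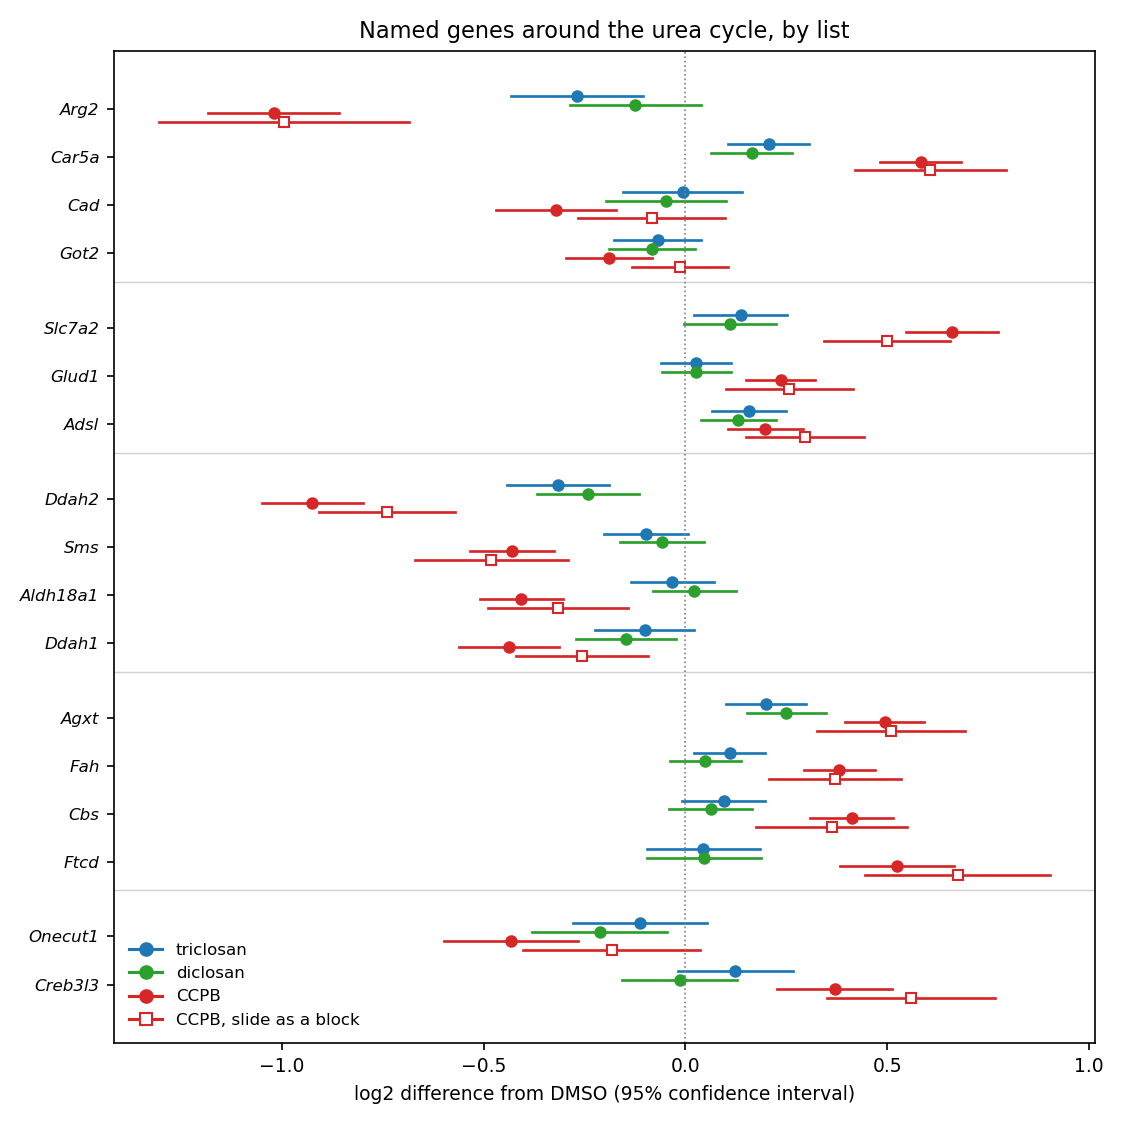
The horizontal axis gives the log2 difference from DMSO, with 95% confidence intervals, for genes named from the 5 lists around the urea cycle (vertical axis, lists parted by grey lines), without Nr0b2, whose differences of 1.80 to 2.25 lie off the scale. Filled points are triclosan, diclosan and CCPB (3 arrays a group) and open squares CCPB with the slide as a block. Arg2 and Ddah2 lie lowest with CCPB, at -1.02 and -0.92, and Slc7a2 and Car5a highest, at 0.66 and 0.58.

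Markers of cell types were read on the same arrays. All 10 hepatocyte markers were well above background on all 12 arrays, and their summed signal, in multiples of the array's 75th percentile, was 3040 to 3170 with DMSO and 3140 to 3210 with CCPB. Of these 10, 4 were called higher with CCPB without the slide, beside 14.3% of all genes or transcripts, and 1, Apob, with it, beside 1.66%. Stellate cell and fibroblast markers, of which 8 of 10 were tested and Lrat was above background on no array, summed to 24.6 to 26.7 with DMSO, 22.2 to 23.1 with triclosan, 21.7 to 25.6 with diclosan and 17.5 to 19.2 with CCPB. In that list Acta2 was called higher and Tagln and Vim lower with CCPB without the slide, and Tagln alone, lower, with it (limma adjusted p = 0.0371). Endothelial markers (5 of 10 tested, Pecam1 and Lyve1 above background on no array) summed to 8.21 to 8.67 with DMSO, 7.63 to 8.22 with triclosan, 8.13 to 9.76 with diclosan and 9.60 to 9.92 with CCPB. Vwf was 0.21 higher with CCPB without the slide and differed by -0.024 with it. Cholangiocyte markers (5 of 10 tested, Krt19, Spp1, Cftr and Tspan8 above background on no array) summed to 6.56 to 7.03 with DMSO, 6.51 to 6.99 with triclosan, 6.55 to 7.44 with diclosan and 7.56 to 8.26 with CCPB. In each of these 2 lists 2 of the 5 tested markers were called higher with CCPB without the slide, and these calls were lost with it. Macrophage markers (4 of 10 tested, Adgre1 and Marco above background on no array) summed to 0.719 to 0.997 with DMSO and 0.930 to 1.05 with CCPB. Their sums were 0.771 to 1.03 with triclosan and 1.05 to 1.2 with diclosan, so every diclosan array lay above every DMSO array. Without the slide, the median difference of these 4 markers from DMSO was 0.554 with diclosan and 0.235 with CCPB. None of the 4 was called against DMSO with any compound in either fit. The stellate cell sum was thus lower, and the endothelial and cholangiocyte sums higher, on every CCPB array than on every DMSO array, and the diclosan arrays reached into the CCPB range for the endothelial sum. These 3 sums are linear and rest mainly on the brightest markers: Tagln and Vim, Vwf, and Slc4a2 and Epcam, in that order. With DMSO, Vwf averaged 3 and no other tested endothelial marker above -2.8. The sums are therefore not measures of whole cell types. The part of these markers in the differences of Arg1, Asl and Ass1 was not tested.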

How the data were processed

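RNA from 12 cultures was hybridised to 1-colour Agilent rat arrays. Per the file headers, the authors' scanner files came from Agilent Feature Extraction 10.7.1.1 and give a processed signal intensity for each spot. The labels' processing notes give no further step, so background correction is as that software made it. The deposited value table holds the same signal as a ratio to about the 75th percentile of each array (75th percentiles 1.003 to 1.008, medians 0.048 to 0.055, correlation with the scanner signals on a log2 scale at least 0.99994) and was used as an alternative. From the deposited intensities, replicate spots were averaged after taking log2 and the array's 75th percentile was subtracted. Control spots and non-uniform spots were left out, population outlier spots were kept, and a probe was kept where some group had it well above background on each of its 3 arrays (24254 of 45598 probes). RefSeq accessions named 21229 probes, and 24369 stayed unnamed. The brightest kept probe stood for a gene. All 12 arrays were fitted by group with limma 3.58.1 in R 4.3.3 (lmFit, eBayes, two-sided, Benjamini-Hochberg). The fit was tested on simulated data. The files carry no mean spot signal, so the normexp alternative (offset 50) used the median signal. All 8 members are described, and up to 4 genes per list with the smallest p in CCPB against DMSO were named, with genes of the lists called with triclosan or diclosan. Some genes that this rule names are not reported here. The members and lists were chosen with earlier results of these data known. The 3 genes nearest to each called member were named by likeness. Promoters came from RefSeq GRCr8. The array annotation used another build, so gene coordinates are not given.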

Additional observations from a re-analysis of the deposited data

How the results depend on the processing

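Across 6 comparisons, differences and calls were recomputed under alternatives fixed at the start, and under 2 chosen after seeing the data (outlier spots left out, slide 2 alone). With the deposited value table, the mean of all probes of a gene, and outlier spots left out, no member changed its call or direction. No count moved by over 1.5 times. Each tested member had 1 probe, so the mean over probes could not change its difference. The deposited table holds the same scanner signal rescaled, so it is hardly a separate check. Both are among the alternatives counted next. Arg1, Asl and Ass1 kept their CCPB against DMSO call in 24 of 25 alternatives each. Most of these alternatives, among them the 12 fits without a single array, left the slide out of the model and could not show its part. The call of each was lost with the replicate block and the slide block together.

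With the slide as a fixed block, genes or transcripts called went from 13 to 46 (triclosan against DMSO), from 5757 to 704 (CCPB against DMSO), from 0 to 1 (triclosan against diclosan), from 4172 to 287 (triclosan against CCPB) and from 2925 to 1007 (diclosan against CCPB). As a random block the counts were 40, 1830, 877 and 1730 for triclosan against DMSO, CCPB against DMSO, triclosan against CCPB and diclosan against CCPB, and Nags against DMSO had an adjusted p of 0.217 with CCPB. Slide 1 arrays alone gave 1 for triclosan and 0 for diclosan against DMSO, and slide 2 alone gave 0 genes and 0 members for diclosan against CCPB. Members called for triclosan against CCPB went from 3 to 0 with the fixed block. Signs reversed with the fixed block, with no call on either side, for Nags (-0.012 triclosan against diclosan, also on slide 1 alone; -0.070 triclosan against CCPB; -0.058 diclosan against CCPB, also on slide 2 alone) and for Cps1 (0.027 triclosan against CCPB).

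The replicate numbers did not pair the arrays: same-numbered arrays of different groups correlated at -0.165 to 0.117 over 18 pairs, 1 of them over 0.1, and differently numbered ones at -0.171 to 0.173. With the replicate block, counts were 26 for triclosan and 6 for diclosan against DMSO, Cps1 was called for CCPB against DMSO (limma adjusted p = 0.0345) and Nags for triclosan against CCPB (0.0336). With the replicate block and the slide block together, counts were 0 (diclosan against DMSO), 300 (CCPB against DMSO), 12 (triclosan against CCPB) and 569 (diclosan against CCPB). Members called were then 0 for CCPB against DMSO (adjusted p = 0.0721 for Arg1, 0.0982 for Asl and 0.0948 for Ass1), 0 for triclosan against CCPB and 1 for diclosan against CCPB (0.0334 for Arg1, 0.0783 for Ass1 and 0.0992 for Asl). Signs reversed for Nags (-0.010 diclosan against CCPB), Otc (0.018 diclosan against DMSO) and Ass1 (0.015 triclosan against diclosan).

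Triclosan against DMSO gave 20 calls with normexp, 26 with quantile normalization, 2 with median centring, 1 with no filter on dim probes, 33 with probes above background on all arrays and 0 from the compared groups alone. For diclosan against DMSO, normexp gave 8, median centring 1, no filter 1, all-array probes 10 and the compared groups 0. Median centring and no filter gave 3316 and 2805 for CCPB against DMSO, 2387 and 1398 for triclosan against CCPB, and 1368 and 1273 for diclosan against CCPB, which the compared groups alone put at 1235. All calls were higher with median centring for triclosan against DMSO, where the main split was 9 higher and 4 lower. For diclosan against DMSO, normexp split the calls into 5 higher and 3 lower and quantile normalization into 2 and 1, against 2 and 0. Otc against DMSO turned to 0.012 for diclosan with normexp, and Ass1 to 0.029 for triclosan against diclosan with quantile normalization. Cps1 for CCPB against DMSO was also called with normexp (adjusted p = 0.0247) and with all-array probes (0.0462), and Nags for triclosan against CCPB from the compared groups (0.0245).

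Leaving out each of the 12 arrays in turn gave 5 to 46 calls for triclosan and 1 to 4 for diclosan against DMSO, 3671 to 7075 (members 3 to 5) for CCPB against DMSO and 0 to 2 for triclosan against diclosan. It gave 2111 to 5638 (members 3 to 4) for triclosan against CCPB and 1651 to 5444 (members 3 to 4) for diclosan against CCPB. Uncalled differences that crossed 0 ran from -0.033 to 0.055 (Arg1) and -0.026 to 0.016 (Otc) for diclosan against DMSO, from -0.023 to 0.011 (Ass1), -0.078 to 0.17 (Cps1) and -0.012 to 0.13 (Nags) for triclosan against diclosan, and from -0.058 to 0.029 (Otc) for triclosan against CCPB. Nags for triclosan against CCPB was called without diclosan replicate 3 (adjusted p = 0.00470). The causes of these changes were not tested.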

Other observations

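Within the list of amino acid breakdown, genes of single routes were read together after their values were seen, so they carry no claim for the list. In histidine breakdown, Amdhd1 was higher with CCPB than with DMSO by 0.43 without the slide and 0.60 with it (limma adjusted p = 0.00289 and 0.0355), beside Ftcd, while Hal, the first enzyme of the route, differed by -0.082 (adjusted p = 0.0894). In tyrosine breakdown, Hgd rose by 0.46 and 0.57 (adjusted p = 0.000463 and 0.0166) beside Fah, whereas Tat, the first enzyme, fell by 0.19 without the slide (adjusted p = 0.0235) and was not called with it (adjusted p = 0.598). In tryptophan breakdown, Haao rose by 0.48 and 0.62 (adjusted p = 0.000545 and 0.0135), Tdo2 rose by 0.54 without the slide and was 0.37 higher with it (adjusted p = 0.322), and Kynu differed by 0.035 (adjusted p = 0.472).

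Asns, which makes asparagine, and Glul, which binds ammonia to glutamate in the cells around the central vein, differed from DMSO by -0.060 and -0.0045 with CCPB (adjusted p = 0.189 and 0.965). Oat, which links ornithine to proline and glutamate, fell by 0.18 without the slide (adjusted p = 0.0128) and was 0.17 lower with it (adjusted p = 0.288).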
